A study of Mus musculus with 6 samples.

Results

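Ifi44, Ifi35, Ifi27l2a, Rtp4, Xaf1, Ly6e, Samd9l, Ddx60 and Nmi are interferon-stimulated genes whose products have been studied less than those of the Ifit, Oas or Mx families. The probe sets analysed were all those whose platform gene symbol is one of these 9 names, which gave 14 probe sets for 8 genes, out of 45037 probe sets and 18193 named genes. Ifi44 was not analysed here.

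The samples were macrophages grown from bone marrow of naive mice of 6 to 8 weeks, 3 cultures from E-FABP knockout mice and 3 from wild-type mice, with C57BL/6 given as the strain of all 6. E-FABP is the epidermal fatty-acid-binding protein, a cytosolic lipid carrier encoded by Fabp5. Every culture had 7 days of GM-CSF at 20 ng/ml and then 18 h beside E0771 cells, a mouse breast cancer line, in a culture insert. Both genotypes were thus exposed to the tumour cells, and cultures without them were not analysed here. RNA was taken from the whole culture. Nothing in the labels ties a replicate to an animal of its own, and p-values measure the spread between these samples. The sources used here do not give how the Fabp5 allele was made.

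Type I interferon, the family of interferon alpha and beta, binds a receptor of the chains Ifnar1 and Ifnar2. The kinases Jak1 and Tyk2 then phosphorylate Stat2, which joins Irf9 and binds the interferon-stimulated response element (ISRE) in front of target genes. Macrophages are among the cells that respond strongly, and the genes described here are targets of that route with varied products: a helicase, a receptor chaperone, small membrane proteins and partners of signalling or cell death proteins.

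Values are log2 intensities, 1 per probe set and array, so a difference of 1 is a doubling. The arrays' medians lay between 5.60 and 5.64, and the number of arrays limits the precision. Fabp5 was far lower on all 3 knockout arrays (8.13, 8.31 and 8.39, against 14.47, 14.41 and 14.45 in wild type). Its dimmer probe set read 5.94, 6.39 and 5.70 in knockout and 13.90, 13.83 and 13.96 in wild type. All these knockout values were still above the median of all values. Of 11 measured macrophage markers, such as Csf1r, Cd68 and Lyz2, 11 exceeded the median of all values, 5.63. The same held for 11 of 13 dendritic cell, 6 of 7 plasmacytoid dendritic cell and 9 of 11 neutrophil markers. This count therefore does not set macrophages apart. On the brightest probe sets of the 8 measured interferon-stimulated genes named at the start, knockout replicate 2 was the lowest knockout array. Wild-type replicate 2 was the highest wild-type array for each of them. Each array was left out in turn.

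Of the 8 measured genes, 6 fell in knockout: Ddx60, Xaf1, Nmi, Ifi35, Samd9l and Ifi27l2a. None rose (2.85% of all genes did), and Rtp4 and Ly6e did not pass the threshold, a limma adjusted p under 0.05 over all probe sets. The knockout mean was the lower one for all 8, and for all 8 the highest knockout value was still below the lowest wild-type value. Over all genes, 2.05% were called lower, 46.9% had the lower mean in knockout and 11.2% had every knockout value below every wild-type value. The members' changes ran from -1.50 to -0.49, with a median of -0.72, beside a median of 0.01 over all 18193 genes. Ddx60 and Xaf1 were lower by at least 1, as were 0.522% of all genes. Xaf1 was lower by less than that without knockout replicate 2 (-0.85) or as the mean of its probe sets (-0.73). The brightest probe set, by its mean over 6 arrays, stands for a gene here. Leaving out knockout replicate 1, or any single wild-type replicate (1, 2 or 3), left 0 member genes called. Omitting knockout replicate 2 left 1, and omitting knockout replicate 3 gave 8. In each of these array leave-outs that gave 0, limma put all 8 genes at an unadjusted p under 0.05 and lower in knockout. The count was 1 (Nmi) with limma's trend and robust settings. It was 0 with a floor at the 20th percentile, where 7 had an unadjusted p under 0.05 by limma. Of all 45037 probe sets, 1691 were called in either direction with all arrays. Without knockout replicate 1, 2 or 3 that number was 40, 326 or 1360. Without wild-type replicate 1, 2 or 3 it was 343, 104 or 953.

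**Figure D1:**
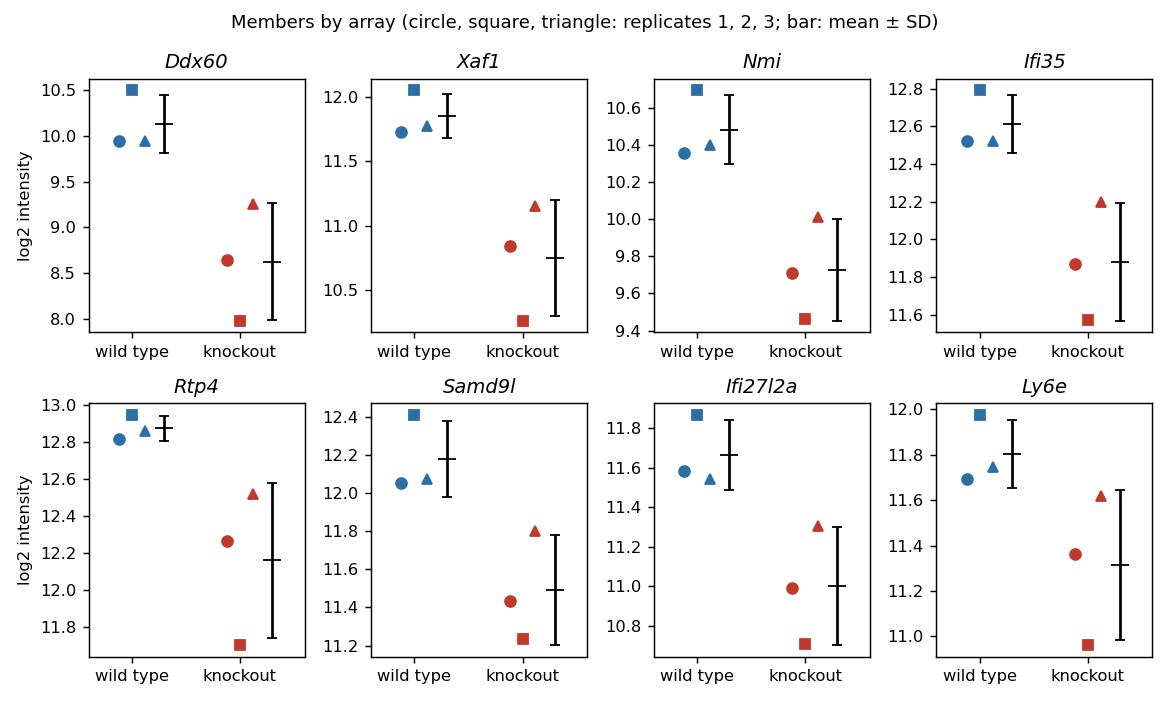
Log2 intensity (vertical axis, its own range in each panel) of the 8 measured genes on the 3 wild-type (blue) and 3 knockout (red) arrays. Circles, squares and triangles are replicates 1, 2 and 3, and the black bar is the mean ± SD (n = 3). In every panel the red points lie below the blue ones, the red square is lowest and the blue square highest.

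Ddx60 codes for a DExD/H-box RNA helicase that has been proposed to assist the RIG-I-like sensors of viral RNA. It had the largest difference of the 8. The brighter probe set read 8.64, 7.98 and 9.25 on knockout replicates 1, 2 and 3 and 9.94, 10.49 and 9.94 on wild-type replicates 1, 2 and 3. The groups did not overlap, with 0.69 between the highest knockout and the lowest wild-type value. The means were 8.63 ± 0.64 and 10.13 ± 0.32 (SD, n = 3 each), a change of -1.50 (SE 0.28, 2.83-fold, limma adjusted p = 0.0273). A second, dimmer Ddx60 probe set was at 7.41, 6.78 and 7.61 in knockout against 8.66, 9.38 and 8.86 in wild type. Its change was -1.70 (SE 0.23, limma adjusted p = 0.0159), with a gap of 1.04 between the groups.

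Xaf1 encodes a protein that binds the apoptosis inhibitor XIAP and opposes it. Its bright probe set read 10.84, 10.26 and 11.15 in knockout and 11.73, 12.05 and 11.78 in wild type, replicates 1 to 3 each. The change was -1.10 (SE 0.20, 2.14-fold, limma adjusted p = 0.0246), and the gap between the groups was 0.58. The second Xaf1 probe set was dim, at 5.04, 4.85 and 5.21 in knockout and 5.38, 5.44 and 5.35 in wild type, all under the median of all values. It differed by -0.36 (SE 0.09) and did not pass (limma adjusted p = 0.0695), although its groups did not overlap. The 2 probe sets thus differed by 0.74 in their change, the widest spread within a gene among the 5 genes with several probe sets. No background level was used here, so the size of the dim probe set's change may be a lower bound.

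Nmi and Ifi35 encode related proteins that bind each other and act in cytokine and innate immune signalling; Nmi is known as a partner of Myc proteins. Nmi read 9.71, 9.46 and 10.01 in knockout and 10.36, 10.69 and 10.40 in wild type, without overlap. It fell by 0.76 on the log2 scale (SE 0.14, 1.69-fold, limma adjusted p = 0.0273). Ifi35 read 11.87, 11.57 and 12.20 in knockout on its brightest probe set and 12.52, 12.79 and 12.52 in wild type, again without overlap. Its change was -0.73 (SE 0.15, 1.66-fold, limma adjusted p = 0.0334). The other 2 Ifi35 probe sets gave -0.85 (SE 0.16) and -0.75 (SE 0.15), with limma adjusted p of 0.0268 and 0.0349, so all 3 fell and their changes lay within 0.12 of each other. Of the 28 pairs of members, Nmi and Ifi35 had the smallest distance over the 6 arrays. The root mean square difference of their deviations from their own means was 0.0315 on the log2 scale. Ifi27l2a and Samd9l followed at 0.0359. Mitd1, which is not a member, was nearer to Ifi35 (0.0293) and to Nmi (0.0314) than these were to each other. Such a distance includes the genotype difference, which these genes share.

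Samd9l belongs to the Samd9 family, cytoplasmic proteins known to restrict poxviruses and to slow growth. It read 11.44, 11.23 and 11.80 in knockout and 12.05, 12.41 and 12.07 in wild type, a change of -0.69 (SE 0.15, 1.61-fold, limma adjusted p = 0.0400). Ifi27l2a, a small hydrophobic protein of the Isg12 family, read 10.99, 10.71 and 11.30 in knockout and 11.58, 11.87 and 11.54 in wild type. The groups stood 0.24 apart, and the gene fell by 0.66 on the log2 scale (SE 0.15, 1.58-fold, limma adjusted p = 0.0439). Both genes have 1 probe set, and both were the closest to the threshold of those that passed. Whether the Ifi27l2a probes also bind Ifi27l2b was not tested.

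Rtp4 codes for a receptor transporter protein, a chaperone that brings opioid and other G-protein-coupled receptors to the cell surface. Its bright probe set read 12.26, 11.70 and 12.52 in knockout and 12.82, 12.95 and 12.86 in wild type. The wild-type values lay within 0.13 of each other and the knockout values spread over 0.82, more than the difference of the means, -0.71 (SE 0.17). This probe set did not pass (limma adjusted p = 0.0574; unadjusted 95% interval -1.10 to -0.32). It passed without knockout replicate 3 (-0.89, limma adjusted p = 0.0232), and narrowly with probe sets above the median only (limma adjusted p = 0.0464) or with array weights (0.0468). The difference was -0.48 without knockout replicate 2, and the limma adjusted p was 0.175 without wild-type replicate 2 and 0.216 with the floor at the 20th percentile. The other Rtp4 probe set read 6.73, 6.45 and 7.28 in knockout and 7.55, 7.32 and 7.14 in wild type. It was the single member probe set whose groups overlapped, at a difference of -0.52 (SE 0.19, limma adjusted p = 0.163).

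Ly6e is a lipid-anchored surface protein of the Ly6 family that alters the entry of several viruses and serves as the receptor of mouse syncytin A. The bright probe set read 11.36, 10.96 and 11.62 in knockout and 11.69, 11.98 and 11.75 in wild type, groups separated by 0.08. Its difference, -0.49 (SE 0.15), was the smallest of the 8 genes and did not pass (limma adjusted p = 0.110; unadjusted 95% interval -0.83 to -0.15). The dimmer probe set read 7.86, 7.38 and 8.32 in knockout and 8.59, 8.96 and 8.42 in wild type. It differed by -0.80 (SE 0.22) and did not pass either (limma adjusted p = 0.0794). Leaving out single arrays moved the bright probe set's difference between -0.32 without knockout replicate 2 (limma adjusted p = 0.231) and -0.64 without knockout replicate 3 (limma adjusted p = 0.0466). Without wild-type replicate 2 it was -0.41, with a limma adjusted p of 0.295.

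**Figure D2:**
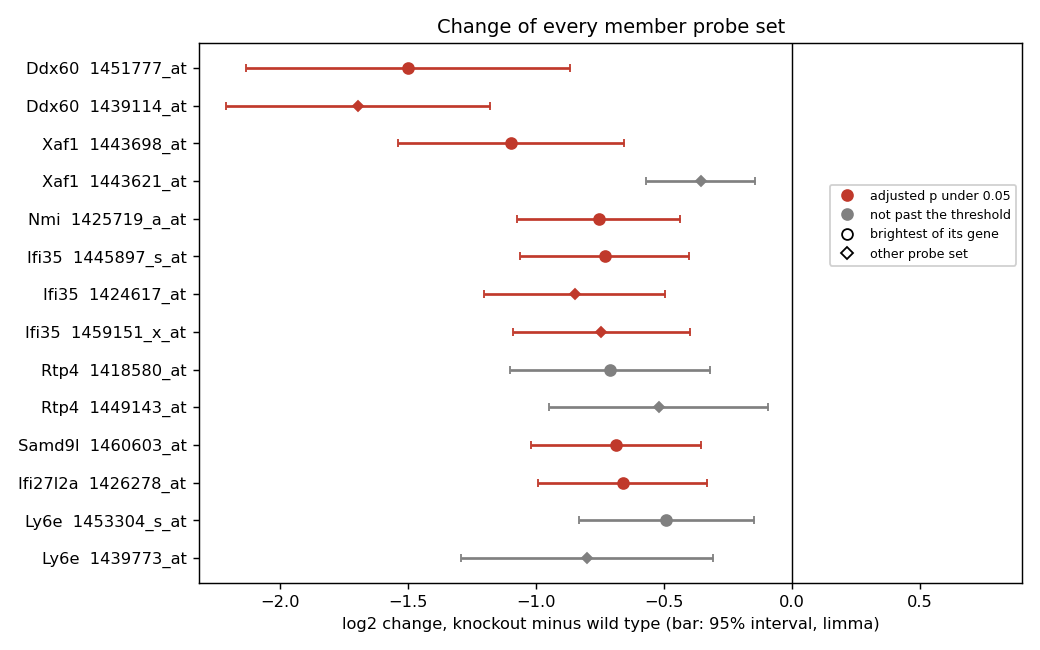
Log2 change (horizontal axis, knockout minus wild type) of the 14 member probe sets, with limma's unadjusted 95% interval. Circles are the brightest probe set of a gene and diamonds the others; red marks a limma adjusted p under 0.05 and grey the rest. All 14 estimates lie below 0, from -1.70 for a Ddx60 probe set to -0.36 for the dim Xaf1 probe set.

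Counted by probe set, 9 of 14 fell, 0 rose and 5 did not pass, where 1.7% of all probe sets were called lower and 2.06% higher. In 13 of the 14 every knockout value lay below every wild-type value, against 11.1% of all probe sets. Leaving out knockout replicate 1 or wild-type replicate 2 gave 0 calls, and leaving out knockout replicate 3 gave 14. There was 1 call after removal of wild-type replicate 1 or 3 and there were 2 after removal of knockout replicate 2. Where it was 0, limma gave 13 of the 14 an unadjusted p under 0.05.

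**Figure D3:**
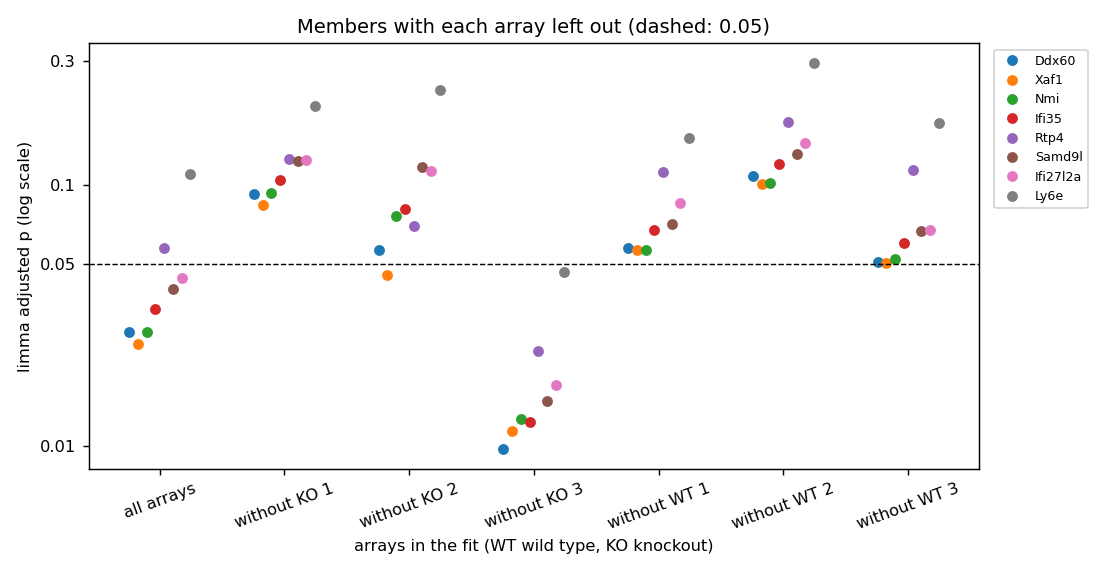
Limma adjusted p (vertical axis, log scale) of the 8 genes with all arrays and with each array left out, with the threshold of 0.05 dashed. With all arrays 6 genes lie under the line; all 8 do without knockout replicate 3, Xaf1 alone without knockout replicate 2 and none in the other fits.

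RefSeq promoter windows of 300 bases, from 250 before a start site to 50 after it, were at hand for 5 of the 8 measured members. The ISRE was searched as GAAANNGAAA on both strands. Spacings of 1 and 3 between both GAAA repeats, GAAANGAAA and GAAANNNGAAA, were added after the sequences had been seen. Every match in these windows lay between 53 bases before and 42 bases after the start, so the stretch from 60 before to 50 after is shown, 5′ to 3′ on the gene's strand, with matches in capitals. The build is GRCm38.p6, which is that of the RefSeq table and not one tied to the array values. The stretches lie at chr8:61928027-61928136 (Ddx60, plus strand), chr11:72301569-72301678 (Xaf1, plus), chr11:101448352-101448461 (Ifi35, plus), chr6:3399522-3399631 (Samd9l, minus) and chr2:51973159-51973268 (Nmi, minus).
Ddx60: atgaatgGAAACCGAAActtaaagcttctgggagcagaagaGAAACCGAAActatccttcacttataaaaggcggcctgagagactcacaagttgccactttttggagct
Xaf1: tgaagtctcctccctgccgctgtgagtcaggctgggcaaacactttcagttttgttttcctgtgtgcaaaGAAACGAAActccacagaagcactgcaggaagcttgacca
Ifi35: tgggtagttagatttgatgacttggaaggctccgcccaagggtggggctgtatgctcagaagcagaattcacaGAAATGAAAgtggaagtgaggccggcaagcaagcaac
Samd9l: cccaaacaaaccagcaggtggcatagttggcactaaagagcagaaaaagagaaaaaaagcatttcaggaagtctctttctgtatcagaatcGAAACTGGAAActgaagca
Nmi: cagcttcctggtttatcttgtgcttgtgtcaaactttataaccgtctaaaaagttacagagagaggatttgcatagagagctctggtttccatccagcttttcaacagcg

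Ddx60, the member with the largest fall, held GAAANNGAAA at 2 places, both read as GAAACCGAAA, at 53 to 44 and at 19 to 10 bases before the start. That pattern stood in 1 of the 5 member windows, in 19 of 53 windows (35.8%) of the other interferon-stimulated genes described below and in 3.44% of 32851 windows of the same length. Xaf1 and Ifi35 each held GAAANGAAA after the start (GAAACGAAA and GAAATGAAA), a pattern found in 3.17% of all windows. Samd9l held GAAANNNGAAA (GAAACTGGAAA), found in 2.75% of all windows. Nmi, whose fall was close to that of Ifi35, held none of the 3 in its window. With any of the 3 spacings, of which 2 were added with these sequences in view, 4 of 5 member windows had a match, beside 8.61% of all windows and 25 of 53 windows (47.2%) of the other interferon-stimulated genes. The gamma-activated site, TTCNNNGAA, matched in the Ifi35 window (TTCACAGAA, overlapping its GAAATGAAA) and in 8.30% of all windows. A match describes these letters and is no evidence of binding.

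The members ran in parallel across the arrays. Knockout replicate 2 was the lowest and knockout replicate 3 the highest knockout array for 8 of 8 genes, and wild-type replicate 2 was the highest wild-type array for 8 of 8. Over all genes, knockout replicate 2 was the lowest of its genotype for 31.5% and wild-type replicate 2 the highest for 34.9%. As the mean of the members' deviations from their own means, knockout replicates 1, 2 and 3 lay at -0.39, -0.80 and -0.05, and wild-type replicates 1, 2 and 3 at 0.30, 0.62 and 0.32. The knockout arrays thus spread more widely than the wild-type arrays, and knockout replicate 3 lay closer to the wild-type arrays 1 and 3 than to knockout replicate 2. The SD was larger in knockout than in wild type for 8 of 8 members, against 49.4% of all genes. Neither this nor the order is particular to the members. Of the 45 other interferon-stimulated genes described below, 44 had the larger SD in knockout. Knockout replicate 3 was the highest knockout array for 44 of the 45. The share of all genes with knockout replicate 3 highest was not counted. For Rtp4 and Ly6e the range of the 3 knockout values exceeded the difference between the genotypes.

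Some other genes followed nearly the same course. Among 10929 genes outside the members whose higher genotype mean was above 5.63, likeness was the root mean square difference between a gene's 6 deviations and the members' mean deviations. The 5 most alike were Oas1a (0.0212), Trim30d (0.0402), Dtx3l (0.0536), Pttg1 (0.0562) and Epsti1 (0.0599). Oas1a makes the second messenger that activates RNase L, Trim30d belongs to a family of interferon-induced ubiquitin ligases, Dtx3l is the partner of Parp9 and Pttg1 is securin, which acts at chromosome separation. Their changes were -0.84, -0.86, -0.78, -0.85 and -0.78. For single members, the closest gene was Ifi47 for Ddx60 (0.0340), Tor3a for Xaf1 (0.0443), Mitd1 for both Ifi35 (0.0293) and Nmi (0.0314), and Xkr8 for both Samd9l (0.0371) and Ifi27l2a (0.0429). For Rtp4 it was Ccnj (0.0497) and for Ly6e it was Macir (0.0534). All these distances are descriptions over 6 arrays that share their genotype difference.

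A list of 50 other interferon-stimulated genes was set beside the members. Among the 45 measured there were 39 falls and 0 rises past the threshold, with a median of -1.02. Of all genes, 2.05% were called lower and 2.85% higher. This list was chosen with earlier results of these data known, so its count is a description only. The 4 with the smallest p were the antiviral Oasl1 (-2.36, SE 0.31), the transcription factor Stat2 (-1.27, SE 0.17), the GTPase Gbp3 (-1.45, SE 0.20) and the coactivator Helz2 (-0.47, SE 0.07), with limma adjusted p of 0.0158 to 0.0177. Among these 45, 12 had a larger fall than Ddx60, 19 than Xaf1, 36 than Nmi or Ifi35, 37 than Rtp4 or Samd9l, and 39 than Ifi27l2a or Ly6e. The members other than Ddx60 and Xaf1 therefore lay among the smaller differences of the pathway, although 0.874% of all genes had a larger fall than Ifi35 and 1.73% than Ly6e. Knockout replicate 2 was the lowest knockout array for 44 of the 45 genes and wild-type replicate 2 the highest wild-type array for 43. With knockout replicate 1 or wild-type replicate 2 removed, 0 were called, and limma then gave 42 and 43 of them an unadjusted p under 0.05. Removing wild-type replicate 1 or 3 left 12 or 22 calls, and removing knockout replicate 2 or 3 left 27 or 40.

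**Figure D4:**
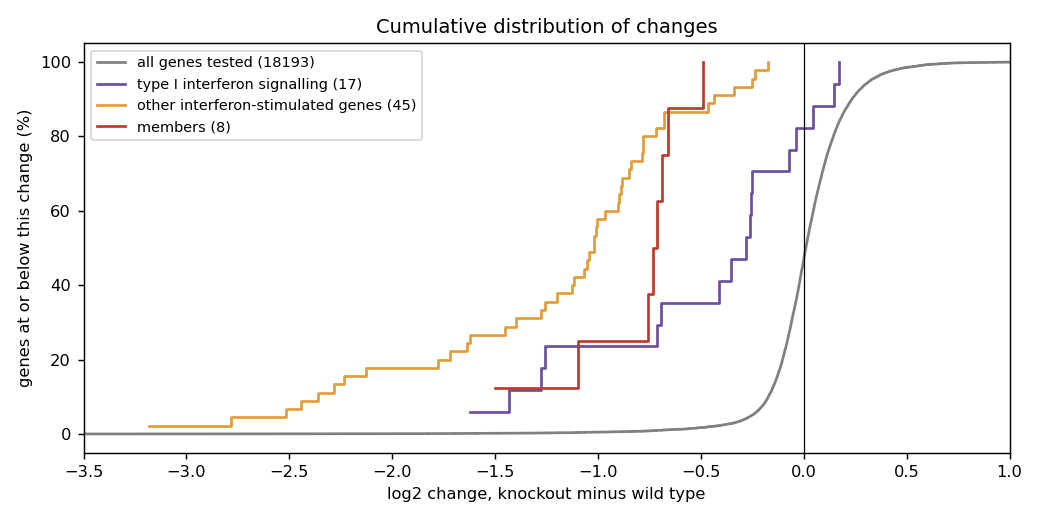
Share of genes (vertical axis, percent) at or below a given log2 change (horizontal axis, knockout minus wild type) for the 8 members, 45 other interferon-stimulated genes, 17 interferon signalling genes and all 18193 genes; the axis ends at -3.5, so the fall of Fabp5 is not drawn. The members' median is -0.72, that of the other interferon-stimulated genes -1.02, that of the signalling genes -0.28 and that of all genes 0.01.

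Of 17 measured genes of type I interferon signalling, 7 fell, 0 rose and 10 did not pass, with a median of -0.28. Whether these falls come before those of the members was not tested. Stat2, Irf7, Irf9 and Usp18 stand on this list and on the one above. Ifnb1, the ligand interferon beta, read 5.43, 5.35 and 5.62 in knockout and 6.72, 7.35 and 6.62 in wild type. It fell by 1.43 on the log2 scale (SE 0.17, limma adjusted p = 0.0136), and all its knockout values lay under the median of all values, so this may be a lower bound. The receptor chain Ifnar1 fell by 0.41 (SE 0.08, limma adjusted p = 0.0344), while Ifnar2 differed by -0.28 (SE 0.07) and did not pass (limma adjusted p = 0.0535). Stat2 fell as given above, and Irf7, which amplifies interferon production, fell by 1.62 (SE 0.28, limma adjusted p = 0.0227). The DNA-binding partner Irf9 differed by -0.25 (SE 0.10, limma adjusted p = 0.204) and its groups overlapped. The inhibitors Usp18 and Socs1 fell by 1.26 (SE 0.19, limma adjusted p = 0.0200) and by 0.69 (SE 0.10, limma adjusted p = 0.0177). With knockout replicate 1 removed, 0 were called and limma gave 9 an unadjusted p under 0.05. Removing wild-type replicate 2 left 1 call, and removing each other array left 5 to 7.

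Relatives and partners of the members had a smaller median difference. Among 21 measured, 4 fell and 0 rose past the threshold, with a median of -0.08. That median includes dim genes, such as Rtp3, Ly6f, Ly6h and Ly6k, which lay under the median of all values on every array. Ifih1 and Dhx58 also stand on the list of other interferon-stimulated genes. The 4 were the RNA sensors Ifih1 (-1.20, SE 0.19) and Dhx58 (-0.90, SE 0.19), both helicases as Ddx60 is, the antibody receptor and ubiquitin ligase Trim21 (-0.95, SE 0.17) and the transcription factor Batf2 (-0.70, SE 0.14), with limma adjusted p of 0.0207 to 0.0361. Xiap, the target of Xaf1, read 10.90, 10.87 and 10.92 in knockout and 10.91, 11.07 and 10.89 in wild type, a difference of -0.06 (SE 0.07, limma adjusted p = 0.707) with overlapping groups. Ly6i, a relative of Ly6e, differed by -0.93 (SE 0.29) without overlap and did not pass (limma adjusted p = 0.111). Relatives of Ifi27l2a did not pass. Ifi27, of the same Isg12 family, read 10.14, 10.20 and 10.16 in knockout against 9.93, 9.74 and 9.93 in wild type, a difference of 0.30 (SE 0.07, limma adjusted p = 0.0625), with the knockout values above the wild-type ones. Ifi27l2b differed by -0.15 (SE 0.08, limma adjusted p = 0.343). Ifi44l, the relative of Ifi44, lay between 3.43 and 3.95 on all 6 arrays, far under the median of all values, and its groups overlapped. Removing knockout replicate 1 or wild-type replicate 1 or 2 left 0 calls among these relatives and partners, with 5, 5 and 6 lower at an unadjusted p under 0.05 by limma. Removing knockout replicate 2 left 1 call, and removing wild-type replicate 3 or knockout replicate 3 left 3 or 4.

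Marker lists of other cells moved on the same arrays, and in RNA from a whole culture fewer cells of a type and less RNA per cell cannot be told apart. For 13 measured dendritic cell markers the mean log2 intensity was 7.39 to 7.78 on knockout arrays and 7.07 to 7.24 on wild-type arrays, and H2-DMb2 and Batf3 passed as higher. Of 11 neutrophil markers 0 passed by limma; their mean was 8.34 to 8.89 in knockout and 8.99 to 9.24 in wild type, and 9 of 11 exceeded the median of all values. For 11 fibroblast markers the mean was 5.05 to 5.14 in knockout and 5.45 to 5.51 in wild type, with Col1a2, Dcn and Col3a1 lower and 4 of 11 above that median. Macrophage markers had means of 11.66 to 11.82 in knockout and 11.89 to 11.99 in wild type, with Fcgr1, itself known to be induced by interferon, and Mertk lower. Among plasmacytoid dendritic cell markers Bst2, also an interferon-stimulated gene, and Tcf4 were lower and Pacsin1 higher, out of 7 (means of 7.30 to 7.46 in knockout and 7.50 to 7.57 in wild type). Of 8 T and NK cell markers 0 passed by limma (5.11 to 5.13 and 5.18 to 5.19), and of 7 B cell markers Blnk was lower (5.42 to 5.50 and 5.50 to 5.57). Epithelial markers, which would mark tumour cells, overlapped (5.71 to 5.74 and 5.68 to 5.77). Knockout replicate 2, the lowest array for the members, was also the lowest in the neutrophil list and the highest in the dendritic cell list. In wild type the highest array for the members, replicate 2, was the lowest in the neutrophil list. In the macrophage, plasmacytoid dendritic cell and epithelial lists, knockout replicate 2 was the lowest knockout array and wild-type replicate 2 the highest wild-type array. The part of these cells in the members' differences was not tested.

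**Figure D5:**
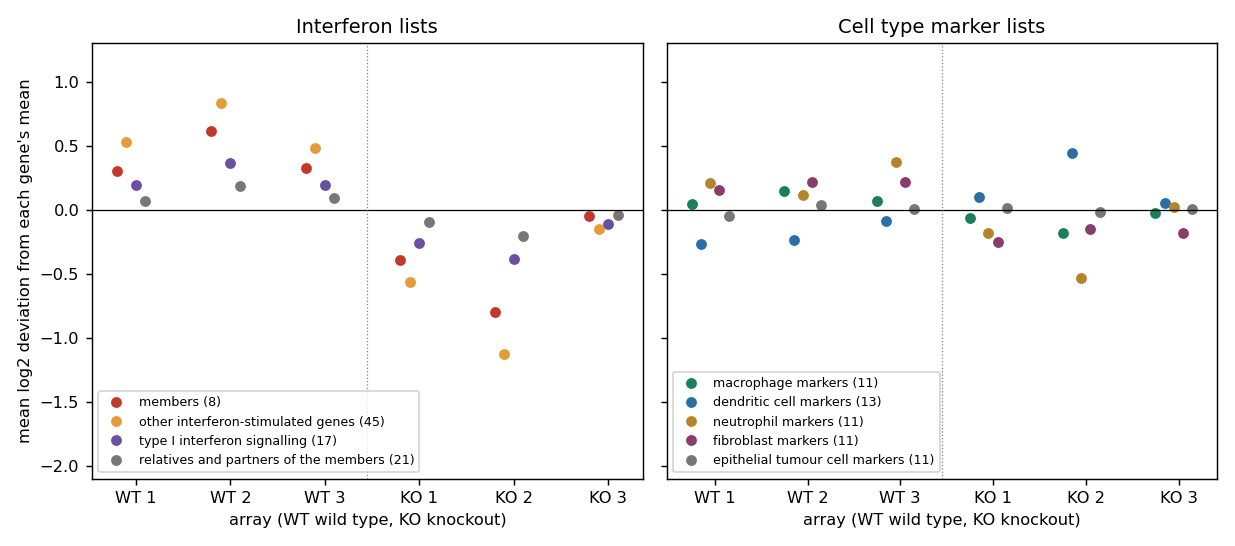
Mean log2 deviation from each gene's own mean (vertical axis) on the 3 wild-type (WT) and 3 knockout (KO) arrays, for the members and 3 interferon lists (left) and 5 marker lists (right), with the number of genes in brackets. The members lie at -0.80 on knockout replicate 2 and at 0.62 on wild-type replicate 2; the neutrophil list lies at -0.54 and 0.12 on these arrays and the dendritic cell list at 0.44 and -0.24.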

How the data were processed

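Values deposited by the authors are log2 intensities of probe sets, a scale read from their range, with 1 array per sample. Tools in the submitters' processing notes are GCRMA 2.30.0, RMA, affy 1.36.1 and limma 3.14.4, with no role or order, and the sources used here do not give which method made the values. GCRMA and RMA treat dim intensities differently, and both make the arrays' distributions alike. Without 64 control probe sets, 45037 were tested: 34945 with 1 gene, 932 with several and 9160 unnamed here.

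The genotypes were compared with limma 3.58.1 (R 4.3.3; lmFit and eBayes, prior degrees of freedom 5.04), and p-values were adjusted by Benjamini-Hochberg over every probe set tested. Permuting 3 against 3 arrays exactly cannot give a two-sided p under 0.1. The script was checked on simulated arrays. Deviations of same-numbered arrays from their group means correlated at -0.06, -0.04 and -0.13. With 3 arrays a group, these values cannot decide whether the numbers pair samples. No 2 arrays held identical values.

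Named genes are the members, Fabp5, a set of pathway genes, the 4 smallest p of each pathway list and the genes of smallest distance. Marker genes, Rtp3 and the Ly6 relatives of Ly6e, all outside this rule, were picked with their values in view, as were the motif spacings of 1 and 3. Members and lists were chosen with earlier results of these data known. Figures used matplotlib 3.10.9 in Python 3.11.15.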

Additional observations from a re-analysis of the deposited data

How the results depend on the processing

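All 8 members kept a lower mean in knockout under every alternative that gave a value, 119 gene values in all; 69 kept their side of the threshold, 46 lost the call and 4 gained it. Leaving out each array gave 0 to 8 member genes, 0 to 14 member probe sets, 40 to 1360 probe sets of all, 0 to 40 other interferon-stimulated genes, 0 to 7 signalling genes and 0 to 4 relatives; the limma adjusted p of the members then lay between 0.00969 and 0.295. With a floor at the 20th percentile (4.07), limma called 0 member genes, 0 member probe sets, 71 probe sets of all and 0 genes of each of the 3 pathway lists, although 7 member genes, 12 member probe sets, 44 other interferon-stimulated genes, 9 signalling genes and 6 relatives had an unadjusted p under 0.05. The members lie above this floor, so their changes stayed the same while the prior degrees of freedom went from 5.04 to 0.469. Trend and robust settings called 1 member gene, 2 member probe sets, 13 other interferon-stimulated genes and 2 relatives, but 6 signalling genes and 3126 probe sets of all. The cause was not tested. The labels do not say that replicate numbers pair the samples. The replicate block called 0 member genes, 0 member probe sets and 92 probe sets of all. It also called 0 other interferon-stimulated genes, 1 signalling gene and 0 relatives. An unadjusted p under 0.05 by limma was held by 8 member genes, 14 member probe sets, 43 other interferon-stimulated genes and 5 relatives. With probe sets above the median only, 2692 probe sets were called. Without probe sets ending in _s_at, _x_at or _a_at, 4 signalling genes fell and Nmi had no probe set left. Quantile normalization and median centring each called 6 member genes.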
